A study of Homo sapiens with 5 samples.

Results

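Antisense RNA genes are transcribed from the strand opposite to another gene, most often a protein-coding one. Some start beside the start site of their neighbor and run away from it, some lie inside it, and some meet it end to end. A few have described roles: TUG1 and LINC-PINT act on chromatin and transcription, HOTAIRM1 lies in the HOXA cluster, and DLEU2 and DNM3OS are the primary transcripts of miR-15a and miR-16-1 and of miR-199a-2 and miR-214. The genes described here were chosen by biotype and level in the table of DAOY cells: biotype antisense, and a mean of at least 2 TPM (a gene's share of all transcripts, per 1000000 of them) over the 5 libraries. GAS5, ZFAS1 and names starting with SNHG were left out. This gave 130 of the 60504 genes in the table. The table lists 5560 antisense genes in all, of which 6 reached the mean of 2 TPM and were left out by name.

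DAOY is an established cell line of sonic hedgehog (SHH) medulloblastoma, and all libraries come from this line. The si-NC group (2 libraries) received a non-targeting siRNA and the si-circ_63706 group (3 libraries) an siRNA against circ_63706, a circular RNA made from exons of PCNT, both at 20 nM and for 48 h. The labels give neither which of the 2 siRNAs named in the study was used nor whether replicates were separate cultures, so p-values measure only the spread between these libraries, which may be technical. The question for this comparison is which genes differed in level after knockdown of circ_63706. Circ_63706 itself has no entry in the gene table, so its knockdown cannot be checked there. PCNT, the gene it comes from, was at 9.96 and 10.38 TPM in si-NC and at 8.80, 7.99 and 7.54 TPM in si-circ_63706 libraries (log2 fold change -0.30 ± 0.07 SE, limma adjusted p = 0.019; -0.15 and adjusted p = 0.228 after the centring described below). Of 13 genes that mark SHH medulloblastoma, 11 had a mean of at least 1 TPM, with ZIC1, PAX6, SFRP1 and YAP1 well above it, while GLI1 (0.352 TPM) and ATOH1 (0.014 TPM) were near 0. Of 8 markers of other cells, 6 were near 0, and CD68 (28.65 TPM) and KRT8 (76.08 TPM) were not. The summed TPM of these 8 genes overlapped between groups (101.7 to 109.1), while that of the SHH genes was 73.69 and 70.26 in si-NC and 60.58, 58.72 and 62.3 in si-circ_63706 libraries. The median gene tested was lower as well (log2 fold change -0.16), and the sum of the SHH genes was not tested. The SHH genes did not move alike. YAP1 had 20.48 and 19.64 TPM against 15.19, 14.22 and 14.62 TPM, while HHIP and GAB1 were higher in every knockdown library than in both controls. Depth is unknown, because TPM keeps none.

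GENCODE 29 lists 127 of the 130 genes, and 117 of them still as antisense. It lists 4 as protein-coding (UMAD1, INAFM2, LINC00094 and TOPORS-AS1). TP73-AS1 is among 2 listed as transcribed unitary pseudogenes, and SVIL-AS1 is listed as a transcribed unprocessed pseudogene. All 130 are called antisense RNA genes here by their deposited biotype. A protein-coding partner on the other strand, overlapping or with a start within 1 kb, was found for 122. By position, 38 were head to head with their partner (starts within 1 kb), 37 lay inside it, 21 met it tail to tail and 26 overlapped it in another way. Exon bases were shared with an expressed gene on the other strand by 85 genes, and 30 shared at least 50% of their exon bases. The strand setting of the authors' counting is not given in the sources used here. Without strand, reads of an antisense gene and of its partner cannot be told apart where their exons overlap, so the values of these 85 genes are uncertain.

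Levels spread widely. The median of the mean levels was 3.50 TPM, 114 of 130 genes were under 10 TPM, and the 8 highest held 59.6% of the summed level. The highest was RP11-386G11.10 (ENSG00000258017, now TUBA1B-AS1), which overlaps TUBA1B, an alpha tubulin gene, on chromosome 12 (49127782 to 49147869, GRCh38). Its TPM was 407.39 and 377.09 in si-NC and 380.82, 365.30 and 389.08 in si-circ_63706 libraries. Next came XXbac-BPG252P9.9 in TUBB (mean 133.7 TPM), RPPH1 beside PARP2 (130.5 TPM) and RP11-161H23.5 in TUBA1C (56.08 TPM). RP1-261G23.7 at VEGFA, RP11-138C9.1 in KPNB1, RP11-138I1.4 in UBB and SCARNA9 followed, from 33.66 down to 28.59 TPM, and neighbors in this order from the fifth to the eighth place overlapped in their library values. Of these 8 genes, 6 shared at least 50% of their exon bases with a gene on the other strand, and those partners encode tubulins, the angiogenic factor VEGFA, the nuclear import receptor KPNB1 and the polyubiquitin UBB.

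**Figure D1:**
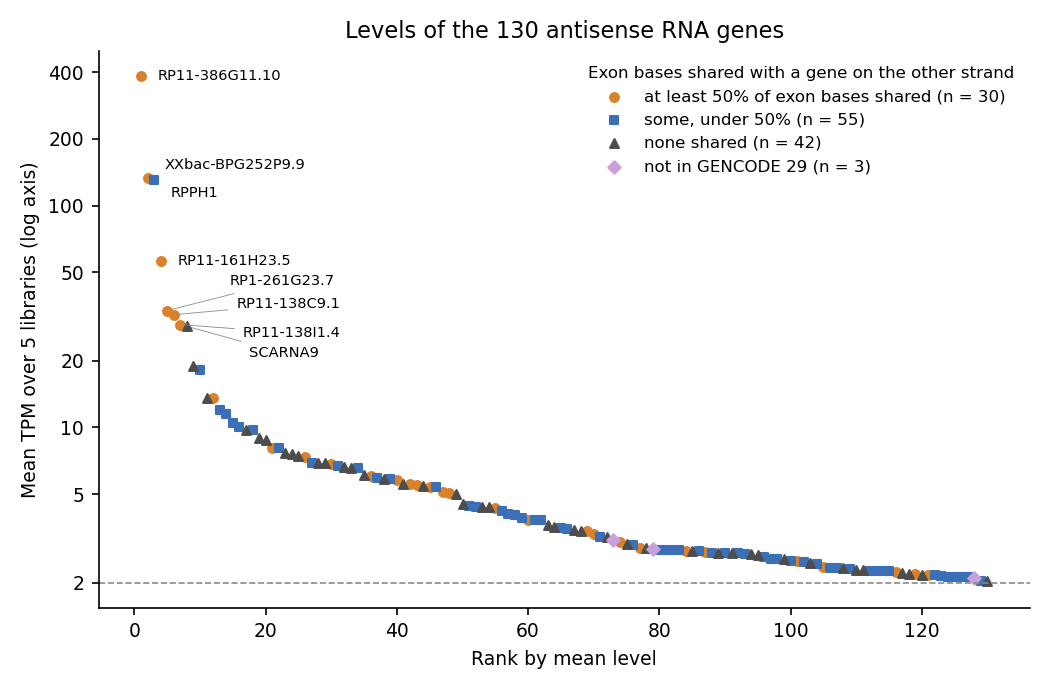
Mean TPM over the 5 libraries (log axis) of the 130 antisense RNA genes, ordered by rank. Colors and shapes give the share of exon bases that also lie in an exon of an expressed gene on the other strand, and the dashed line is the minimum of 2 TPM. The 8 highest genes are named, and 6 of them are in the class that shares at least 50%.

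What such an overlap looks like is shown by 4 stretches of transcript, chosen because they belong to genes whose level changed and because every base lies in a coding exon of the partner. Each is 60 bases long, read 5′ to 3′ on the antisense strand from GENCODE 29 transcripts (GRCh38), and its reverse complement was found in 5 to 9 transcripts of the partner.
RP11-138I1.4 in UBB, chr17:16382451-16382510, minus strand: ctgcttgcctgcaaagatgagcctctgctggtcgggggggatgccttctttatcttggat
RP11-323N12.5 in TIMP2, chr17:78855670-78855729, plus strand: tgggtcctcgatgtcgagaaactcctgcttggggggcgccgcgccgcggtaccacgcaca
RP5-940J5.9 in GAPDH, chr12:6537926-6537985, minus strand: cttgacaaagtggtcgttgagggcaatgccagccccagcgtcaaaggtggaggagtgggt
AC009133.15 in MAZ, chr16:29807673-29807732, minus strand: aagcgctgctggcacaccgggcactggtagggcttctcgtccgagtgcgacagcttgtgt

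Knockdown was set against si-NC in 1 fit of all 12710 genes with a mean of at least 1 TPM (limma on log2(TPM + 1), two-sided, Benjamini-Hochberg adjusted p under 0.05). Of the 130 antisense RNA genes, 7 were higher and 38 lower in si-circ_63706 libraries, that is 5.38% and 29.2%. Over all genes tested, 4.16% were higher and 35.4% lower, so the share of antisense RNA genes past the threshold was near the background. In RNA from a whole culture, fewer cells that express a gene and less of its RNA per cell cannot be told apart. Their median log2 fold change was -0.18, beside -0.16 for all genes tested. Groups did not overlap for 14 genes that were higher and 67 that were lower, where the background was 8.93% and 55.2% of all genes. Of the 45 called genes, 8 changed by more than 1.5-fold on the log2(TPM + 1) scale, and a fold change on this scale understates that of low genes. In 3 genes the si-NC mean, and in 11 the si-circ_63706 mean, was itself under 2 TPM. Those genes reached the minimum through the other group, and 1 of the 3 was called higher and 5 of the 11 lower.

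The median gene of the table was lower in the knockdown libraries, so the test was repeated after each library had been centred on the median log2 ratio of genes with at least 10 TPM. The median of all genes then moved from -0.16 to -0.02. After centring, 12 antisense RNA genes were higher and 19 lower (background 11.7% and 16.1%), with a median of -0.06. All 7 genes called higher before stayed higher, and all 19 lower genes were among the 38, while the other 19 of the 38 no longer passed. The 130 genes together added up to 1496 and 1495 TPM in si-NC and to 1299, 1315 and 1345 TPM in si-circ_63706 libraries, but to 0.515% and 0.515% against 0.515%, 0.503% and 0.499% of the protein-coding TPM. By either scale, 80 genes had no call.

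Other biotypes with at least 2 TPM gave varied counts. Among 144 lincRNA genes 9 were higher and 45 lower (31.2%), among 52 processed transcript genes 3 and 9 (17.3%), among 12 sense intronic genes 2 and 0, and among 5 sense overlapping genes 1 and 0. Among 9867 protein-coding genes 417 were higher and 3963 lower (40.2%). Among antisense RNA genes, those inside their partner held 6 of the 7 higher calls and 12 lower calls (37 genes), the tail-to-tail class 10 lower calls (21 genes), and the head-to-head class 10 lower calls (38 genes), beside the 4.16% higher and 35.4% lower of all genes tested. No test of a difference between these classes was made.

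AC009133.15 (ENSG00000259952, chromosome 16, 29806496 to 29807732, minus strand) lies inside MAZ, a zinc finger transcription factor gene, with 91.8% of its exon bases in MAZ coding exons. It was at 4.6 and 3.82 TPM in si-NC and at 1.74, 1.33 and 0.21 TPM in si-circ_63706 libraries. Groups did not overlap, but the third knockdown library was far below the others. It fell by 1.39 on the log2 scale (± 0.33 SE, limma adjusted p = 0.0181, and 0.0451 after centring). Its mean of 1.093 TPM in si-circ_63706 libraries is under the minimum, which it reached only through si-NC. The call was lost without si-NC replicate 1 (-1.29) or replicate 2 (-1.5) and with no minimum TPM, with a highest adjusted p of 0.104 over all alternatives.

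CTD-2231E14.8 (ENSG00000269243, chromosome 19, 16123661 to 16139892, minus strand) meets RAB8A, a small GTPase of vesicle traffic, tail to tail, and 49.9% of its exon bases lie in RAB8A exons. It had 15.29 and 14.65 TPM in si-NC and 6.78, 6.78 and 6.65 TPM in si-circ_63706 libraries. All knockdown values lay under 50% of any control value. RAB8A fell as well, from 59.04 and 55.35 to 31.41, 33.53 and 35.6 TPM (log2 fold change -0.75 ± 0.06 SE, limma adjusted p = 0.00112). The log2 ratio of CTD-2231E14.8 to RAB8A within a library changed by -0.29 ± 0.08 SE (limma adjusted p = 0.0497 over all pairs). That ratio did not pass in every alternative. RP11-323N12.5 (ENSG00000267601, chromosome 17, 78855478 to 78855844, plus strand) lies in exons of TIMP2, an inhibitor of metalloproteinases, with 47.7% of its bases in coding exons. Its level was 20.36 and 19.73 TPM against 9.07, 9.26 and 9.27 TPM. CTD-2231E14.8 and RP11-323N12.5 were at 45 to 46% of the si-NC mean, with log2 fold changes of -1.05 ± 0.05 and -1.04 ± 0.05 SE (limma adjusted p = 0.000552 for each).

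RP5-940J5.9 (ENSG00000269968, chromosome 12, 6537794 to 6538370, minus strand) lies wholly in exons of GAPDH, the glycolytic enzyme. It was at 9.17 and 11.32 TPM in si-NC and at 6.40, 5.08 and 4.70 TPM in si-circ_63706 libraries (log2 fold change -0.82 ± 0.13 SE, limma adjusted p = 0.00539). GAPDH itself was at a mean of 2231 TPM and fell as well (log2 fold change -0.37 ± 0.05 SE, limma adjusted p = 0.00394). The log2 ratio of RP5-940J5.9 to GAPDH within a library did not pass (-0.45 ± 0.16 SE, limma adjusted p = 0.101 over all pairs). The next were PRR34-AS1, RP11-500C11.3 (now NUP153-AS1), LINC01481 (now PRANCR), AC009005.2 (now BSG-AS1) and RP4-781K5.2 in IRF2BP2, with log2 fold changes between -0.59 and -0.52. PRR34-AS1, head to head with PRR34 and with 15.6% of its exon bases in coding exons of that gene, had 4.53 and 4.61 TPM in si-NC and 2.47, 2.99 and 2.65 TPM in si-circ_63706 libraries. Groups were apart in all 5. LINC01481 alone lost its call after centring (limma adjusted p = 0.106), and its result was weaker in 9 of the alternatives and the same in 3. The others passed in every alternative. The other 28 genes called lower had log2 fold changes between -0.51 and -0.26, and 10 of them passed after centring.

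**Figure D2:**
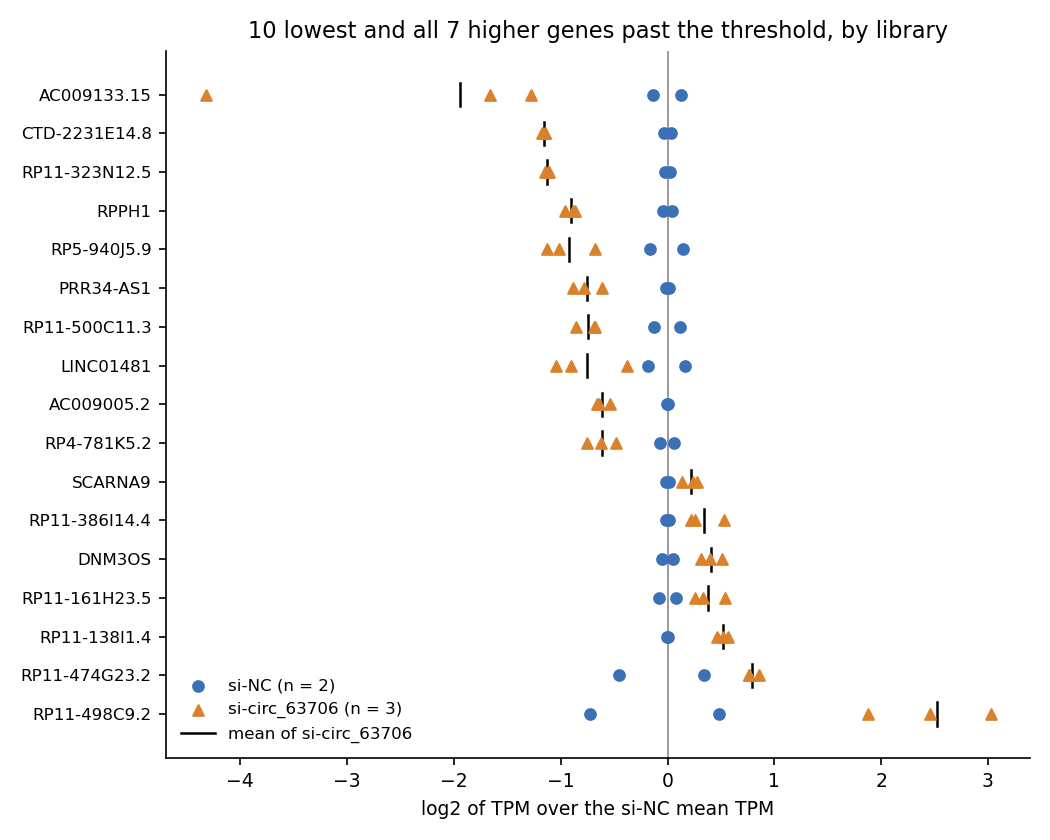
TPM in each library, as log2 of its ratio to the si-NC mean, for the 10 antisense RNA genes with the lowest log2 fold change past the threshold (top) and all 7 that were higher (bottom). Circles are the 2 si-NC libraries, triangles the 3 si-circ_63706 libraries and bars the knockdown mean; the groups do not overlap in any row, the third knockdown library of AC009133.15 lies far below the others, and the control libraries of RP11-474G23.2 and RP11-498C9.2 lie apart from each other.

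RPPH1 has 2 entries in the table. It encodes the RNA of RNase P, which trims the 5′ ends of tRNA precursors, and starts next to PARP2, a DNA repair gene on the other strand. The entry of biotype antisense (ENSG00000259001, chromosome 14, 20343048 to 20343685, minus strand) is 638 bases long. The entry of biotype ribozyme (ENSG00000277209) covers 333 bases inside it, which leaves 278 bases of the longer entry upstream and 27 downstream. The 2 entries share 333 bases on the same strand, so the division of reads between them is uncertain. The longer entry also shares 104 exon bases (16.3% of its own) with PARP2 exons, where reads cannot be told apart without strand. The stretch around the PARP2 start is shown because it lies wholly in the longer entry. It is the RefSeq promoter window of PARP2 (250 bases before its start and 50 after, GRCh38.p14), read on the PARP2 strand. Capitals mark the 23 bases that also belong to the shorter entry, on the opposite strand.
PARP2, chr14:20343385-20343684, plus strand: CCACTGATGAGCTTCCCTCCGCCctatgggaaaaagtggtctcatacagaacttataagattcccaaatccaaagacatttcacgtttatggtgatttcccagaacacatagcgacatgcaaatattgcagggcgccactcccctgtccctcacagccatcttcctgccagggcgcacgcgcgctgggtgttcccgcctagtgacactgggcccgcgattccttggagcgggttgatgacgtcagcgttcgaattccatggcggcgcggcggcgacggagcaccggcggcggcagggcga

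The entries did not move alike. The longer RPPH1 entry had 175.52 and 186.45 TPM in si-NC and 93.27, 98.14 and 99.20 TPM in si-circ_63706 libraries, 53.5% of the si-NC mean. It fell by 0.89 on the log2 scale (± 0.05 SE, limma adjusted p = 0.00058), and by 0.74 after centring (adjusted p = 0.000646). The shorter entry was at 33403.40 and 33317.09 TPM against 34403.75, 35695.24 and 35400.75 TPM, with all knockdown values above all control values. Its log2 fold change was 0.08 ± 0.06 SE (limma adjusted p = 0.375) and, after centring, 0.23 (adjusted p = 0.0126). PARP2 was at 29.70 and 31.80 TPM against 23.60, 23.81 and 23.27 TPM, a log2 fold change of -0.37 ± 0.05 SE (limma adjusted p = 0.00294). Against PARP2 in the same library, the longer entry fell by a further 0.53 (± 0.06 SE, adjusted p = 0.00266 over all pairs).

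**Figure D3:**
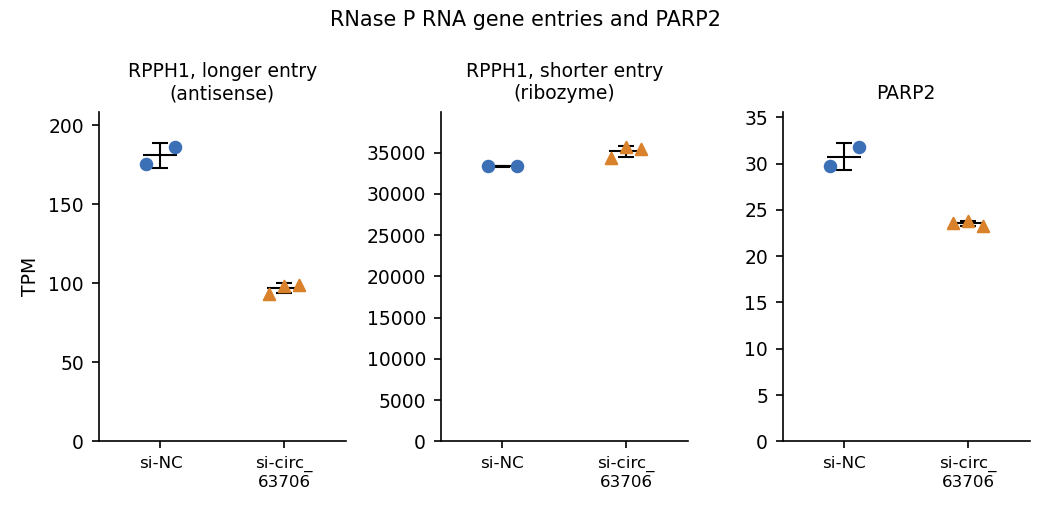
TPM in each library (points), with mean and SD (bars), of the longer RPPH1 entry (638 bases, antisense), the shorter RPPH1 entry (333 bases, ribozyme) and PARP2, each on its own axis starting at 0. The longer entry and PARP2 are lower in all 3 si-circ_63706 libraries than in both si-NC libraries, and the shorter entry is higher.

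All 7 genes called higher also passed after centring, and 4 of them shared at least 50% of their exon bases with the other strand. RP11-498C9.2 (ENSG00000262831, chromosome 17, 81843165 to 81843958, plus strand) lies in exons of P4HB, a protein disulfide isomerase, and 99.6% of its bases are in parts that do not code for protein. It was at 1.04 and 0.45 TPM in si-NC and at 6.06, 4.08 and 2.73 TPM in si-circ_63706 libraries. The groups were apart, but the values within each differed by more than 2-fold. Its log2 fold change was 1.57 ± 0.27 SE (limma adjusted p = 0.00677). Its si-NC mean of 0.745 TPM is under the minimum, which it reached only through the knockdown group. RP11-474G23.2 (ENSG00000273275), in exons of PPP3R1, a calcineurin subunit, had 3.83 and 2.21 TPM in si-NC and 5.12, 5.46 and 5.13 TPM in si-circ_63706 libraries (log2 fold change 0.66 ± 0.16 SE, limma adjusted p = 0.0199).

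RP11-138I1.4 (ENSG00000265401, chromosome 17, 16382152 to 16382669, minus strand) lies in exons of UBB, with 83.7% of its bases in the coding part. It was at 23.02 and 23.18 TPM in si-NC and at 33.10, 34.30 and 31.85 TPM in si-circ_63706 libraries. The rise was 1.43-fold in TPM, and the log2 fold change was 0.50 ± 0.05 SE (limma adjusted p = 0.00145). RP11-161H23.5 (ENSG00000258232) in TUBA1C had 44.82 and 50.17 TPM against 56.92, 68.86 and 59.62 TPM, a log2 fold change of 0.37 ± 0.09 SE (limma adjusted p = 0.0206). RP11-386I14.4 (ENSG00000273338), a short gene in an intron of GIPC2, and SCARNA9 (ENSG00000254911), a small Cajal body RNA gene with no partner, rose by 0.31 ± 0.09 and 0.21 ± 0.05 SE on the log2 scale (limma adjusted p = 0.037 and 0.0253). Of the 7 genes called higher, RP11-138I1.4 alone passed under every alternative. Without si-NC replicate 2 the call of RP11-498C9.2 was lost (1.33), and without either si-NC library those of RP11-161H23.5 (0.29 and 0.45), RP11-386I14.4 (0.30 and 0.33) and SCARNA9 (0.19 and 0.23). The last 2 were also lost without si-circ_63706 replicate 2 (0.35 and 0.18), SCARNA9 also without replicate 3 (0.20), and RP11-474G23.2 without si-circ_63706 replicate 1 (0.68) or 2 (0.64). With no minimum TPM, 5 of the 7 lost their calls, the exceptions being RP11-138I1.4 and RP11-498C9.2, and SCARNA9 also lost its call with the replicate block (0.20).

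DNM3OS (ENSG00000230630, chromosome 1, 172138397 to 172144840, minus strand) lies in an intron of DNM3, a dynamin gene, and shares no exon base with it. It had 4.37 and 4.71 TPM in si-NC and 5.65, 5.99 and 6.45 TPM in si-circ_63706 libraries. All knockdown values were above both controls, and the log2 fold change was 0.34 ± 0.07 SE (limma adjusted p = 0.0114), not past the threshold without si-NC replicate 1 (0.30) or with no minimum TPM (limma adjusted p = 0.0518). DLEU2 (ENSG00000231607, chromosome 13, 49982552 to 50125720, minus strand), the other host of well-known microRNAs, had 2.89 and 3.02 TPM against 2.35, 2.14 and 2.43 TPM, and fell by 0.26 ± 0.07 SE (limma adjusted p = 0.0318; 0.173 after centring). MIR199A2 was listed at 45.58 and 0 TPM in si-NC and at 13.07, 0 and 0 TPM in si-circ_63706 libraries, and MIR214, MIR15A and MIR16-1 at 0 in every library, so these libraries give no usable level of the microRNAs. The mature microRNAs are shown because they are what the 2 hosts are known for. Sequences are from RefSeq (GRCh38.p14), with bases 2 to 8, the seed, in capitals, and only miR-15a-5p and miR-16-5p among them share a seed.
hsa-miR-199a-5p, in DNM3OS: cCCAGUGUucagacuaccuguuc
hsa-miR-199a-3p, in DNM3OS: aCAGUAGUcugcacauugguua
hsa-miR-214-5p, in DNM3OS: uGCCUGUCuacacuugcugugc
hsa-miR-214-3p, in DNM3OS: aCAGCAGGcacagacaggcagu
hsa-miR-15a-5p, in DLEU2: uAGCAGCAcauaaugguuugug
hsa-miR-16-5p, in DLEU2: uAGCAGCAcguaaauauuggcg

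A list of 53 antisense RNA genes with a described role, which does not hold DNM3OS, had 16 genes among the 130. On the deposited scale 3 of these 16 were lower and 0 higher (limma), where the background was 35.4% and 4.16%. After centring 0 passed in either direction (background 16.1% and 11.7%). The median log2 fold change was -0.14, and 0.01 after centring. TP73-AS1, tail to tail with TP73, a p53 family gene, fell from 4.91 and 5.64 TPM in si-NC to 3.63, 3.48 and 4.25 TPM in si-circ_63706 libraries (log2 fold change -0.39 ± 0.09 SE, limma adjusted p = 0.0182). THAP9-AS1, head to head with THAP9, a gene derived from a transposase, fell from 7.03 and 8.11 to 5.81, 6.02 and 6.32 TPM (-0.28 ± 0.07 SE, limma adjusted p = 0.0252). DLEU2 was the third. The calls of all 3 were lost without si-NC replicate 2 (-0.31, -0.19 and -0.24) and without single knockdown libraries (-0.37 to -0.35, -0.28 to -0.25 and -0.27 to -0.22), and those of TP73-AS1 and DLEU2 also without si-NC replicate 1 (-0.48 and -0.28).

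TUG1 was the most abundant gene of this list, with 19.73 and 19.44 TPM in si-NC and 18.70, 17.83 and 19.05 TPM in si-circ_63706 libraries. All 3 knockdown values were below both controls, but the log2 fold change of -0.08 ± 0.05 SE did not pass (limma adjusted p = 0.254), and it was 0.07 after centring. FGD5-AS1 had 19.48 and 19.68 TPM against 16.56, 16.33 and 18.49 TPM (limma adjusted p = 0.0602). HOTAIRM1 had 12.33 and 12.67 TPM against 9.66, 11.21 and 11.66 TPM (limma adjusted p = 0.103), and HOXA-AS2 overlapped between groups. A separate entry, HOTAIRM1_5 (145 bases), lies wholly in HOTAIRM1 exons on the same strand. It had 22.96 and 21.41 TPM in si-NC and 15.74, 14.22 and 14.48 TPM in si-circ_63706 libraries. Its log2 fold change was -0.55 ± 0.06 SE (limma adjusted p = 0.00193, and 0.0123 after centring). The division of reads between HOTAIRM1 and HOTAIRM1_5 is uncertain. ZEB1-AS1, beside the gene of an epithelial-mesenchymal transcription factor, had the lowest log2 fold change of the list, -0.40 ± 0.16 SE, with 2.48 and 2.57 TPM against 1.18, 2.21 and 1.72 TPM, and did not pass (limma adjusted p = 0.0876). LINC-PINT, which p53 is known to induce, had values that overlapped, with a log2 fold change of 0.02 ± 0.11 SE. TTN-AS1, NUTM2A-AS1, NUTM2B-AS1, PSMA3-AS1, TMEM161B-AS1, LOXL1-AS1 and MCM3AP-AS1 had log2 fold changes from -0.23 to -0.01, none past the threshold, and for all of them but LOXL1-AS1 the value was above 0 after centring.

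**Figure D4:**
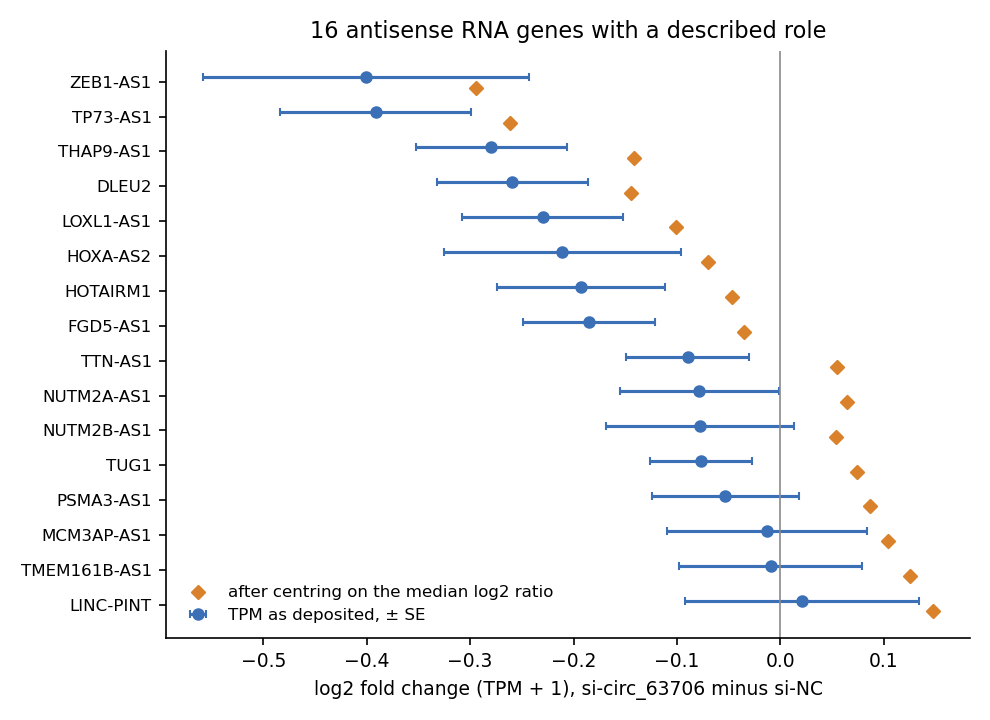
log2 fold change on the log2(TPM + 1) scale, si-circ_63706 minus si-NC, of the 16 antisense RNA genes of the list of described roles. Circles are the deposited TPM with the standard error of the limma fit, and diamonds the same after centring; 15 of the 16 circles lie below 0 and 8 of the diamonds above it.

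Whether an antisense RNA moved apart from its partner was tested on the log2 ratio of the pair within each library, which a scaling of a whole library moves little. Among 2410 pairs of expressed genes on opposite strands, 15.1% passed (limma, adjusted p under 0.05, either direction). Of the 100 pairs of an antisense RNA gene with a tested partner, 18 passed: in 10 the antisense RNA was higher relative to its partner and in 8 lower. Partners taken alone were higher in 4 and lower in 43 of 99 genes (4.04% and 43.4%). The shares were 4.16% and 35.4% over all genes tested, and 4.23% and 40.2% over protein-coding genes of at least 2 TPM. Across the 100 pairs, changes of both genes had a Pearson r of 0.31 and a Spearman rho of 0.28 over genes, which share the 5 libraries and, where exons overlap, reads. The median size of the ratio change was 0.34 for the 29 pairs that shared at least 50% of the exon bases of the antisense RNA with the partner, 0.18 for the 49 pairs with a smaller share and 0.13 for the 22 pairs with none.

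RP11-498C9.2 had the highest ratio change: P4HB rose from 166.74 and 162.21 to 176.70, 182.65 and 191.39 TPM, and the ratio by 1.42 ± 0.28 SE (limma adjusted p = 0.0208). RP11-498C9.2 was chosen only through its knockdown values, so its place at the top is not independent of the choice of genes. The ratio did not pass in every alternative. UBB moved the other way from RP11-138I1.4, from 449.33 and 438.38 down to 330.64, 346.88 and 366.85 TPM. The ratio of this pair rose by 0.85 ± 0.07 SE (limma adjusted p = 0.002), with the same call in each alternative. RP11-78A19.3 (now CHMP1B-AS1), in exons of CHMP1B, a gene of the ESCRT-III complex, had 4.70 and 3.84 TPM against 5.62, 5.50 and 8.12 TPM, while CHMP1B fell (log2 fold change -0.35), and their ratio rose by 0.83 ± 0.17 SE (limma adjusted p = 0.0231). The tubulin pairs also parted. RP11-386G11.10 did not pass alone (log2 fold change -0.05, and 0.11 after centring), TUBA1B fell from 940.69 and 924.99 to 650.88, 671.74 and 703.64 TPM, and the ratio rose by 0.41 ± 0.04 SE (limma adjusted p = 0.00266). For RP11-161H23.5 and TUBA1C the ratio rose by 0.61 ± 0.10, and for XXbac-BPG252P9.9 and TUBB by 0.20 ± 0.05 (limma adjusted p = 0.00882 and 0.029).

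MCM3AP-AS1 (ENSG00000215424, chromosome 21, 46229217 to 46259390, plus strand) lies 64732 bases from PCNT and was the only one within 1 Mb of it among the 127 genes with a position. Its TPM overlapped between groups, with 2.54 and 3.14 in si-NC and 2.83, 2.54 and 3.03 in si-circ_63706 libraries. Its partner MCM3AP, a gene of mRNA export, fell from 23.05 and 24.34 to 14.08, 13.22 and 15.97 TPM (log2 fold change -0.68 ± 0.08 SE, limma adjusted p = 0.00225). The ratio of the pair rose by 0.67 ± 0.09 SE (limma adjusted p = 0.00662). RP11-415J8.3 was alike in this: it held 2.15 to 2.3 TPM in all libraries, PHC2, a polycomb gene, fell by 0.64 ± 0.05 SE (limma adjusted p = 0.000873), and the ratio rose by 0.66 ± 0.10 SE (limma adjusted p = 0.0075).

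Of the 8 pairs whose ratio fell past the threshold, RP11-323N12.5 against TIMP2 changed most (-0.73 ± 0.07 SE, limma adjusted p = 0.00213), then the longer RPPH1 entry against PARP2. SVIL-AS1 against SVIL, AC007620.3 against GNB4 and RP11-500C11.3 against NUP153 followed, with ratio changes of -0.43, -0.42 and -0.38 (limma adjusted p = 0.0488, 0.0491 and 0.0343). These 3 ratios did not pass in every alternative. The remaining ratios were those of AC009005.2 against BSG, CTD-2231E14.8 against RAB8A and GABPB1-AS1 against GABPB1 (-0.36, -0.29 and -0.27, limma adjusted p = 0.0231, 0.0497 and 0.0467). SVIL-AS1 fell from 8.25 and 8.23 to 5.53, 6.6 and 5.99 TPM, and SVIL, which encodes an actin-binding protein, was between 6.72 and 7.85 TPM in all libraries. SVIL-AS1 and AC007620.3 lost their own calls without either si-NC library (-0.39 and -0.40, and -0.47 and -0.44), and AC007620.3 also after centring (-0.32, limma adjusted p = 0.0546) and with no minimum TPM. With quantile normalization both lost them (-0.24 and -0.29). RP4-781K5.2 and its partner IRF2BP2 fell by nearly the same amount, -0.52 and -0.53. AC009133.15 against MAZ did not pass (-1.17 ± 0.34 SE, limma adjusted p = 0.058).

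**Figure D5:**
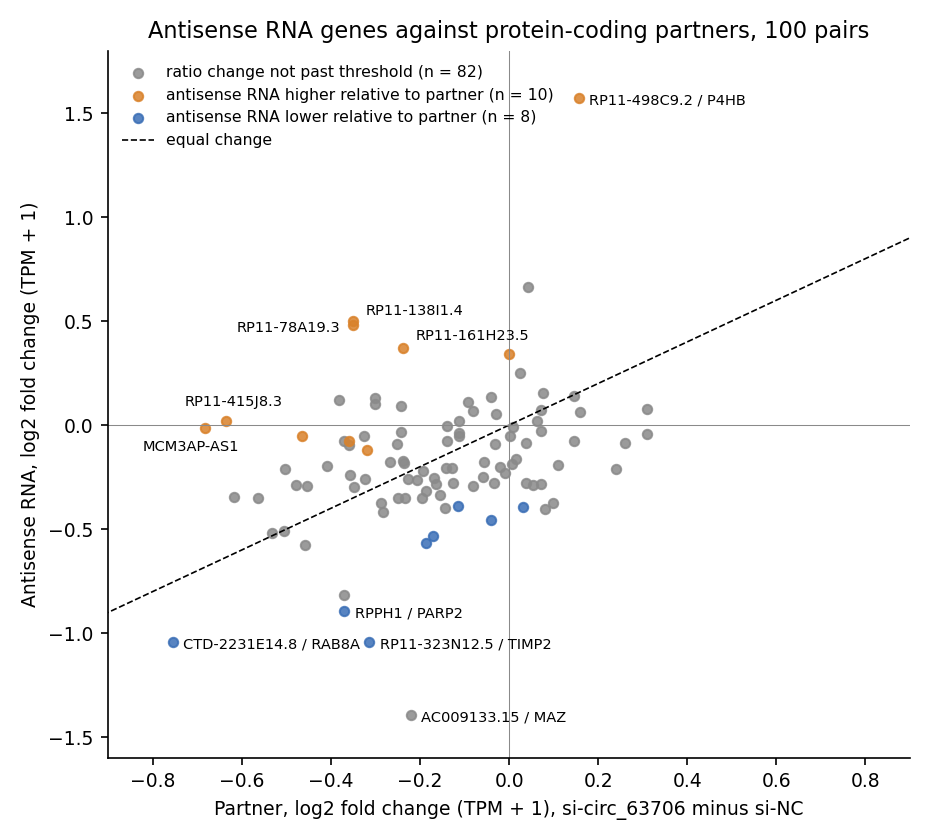
log2 fold change (TPM + 1, si-circ_63706 minus si-NC) of 100 antisense RNA genes against that of their protein-coding partner; the dashed line marks equal change. Orange pairs (10) have an antisense RNA that was higher relative to its partner and blue pairs (8) one that was lower by the limma fit of the ratio, and the other 82 did not pass.

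RefSeq promoter windows of 300 bases (GRCh38.p14) were matched by symbol for 68 of the 130 genes. For some the RefSeq start lies far from the GENCODE start (196866 bases for LINC-PINT and 14142 for HOXA-AS2), and their windows are counted too. The median CpG number of the 68 windows was 24, beside 14 in all 35116 windows of the table. The GC box GGGCGG was found in 61.8% (45.0% of all windows), CCAAT in 44.1% (34.6%), the ETS letters CCGGAAG in 14.7% (10.3%), TATAAA in 8.82% (11.5%), and the E2F letters TTTGGCG and TTTCCCG in 1.47% and 5.88% (1.92% and 4.29%), on either strand. The NRF1 palindrome, CRE (TGACGTCA) and AP-1 (TGANTCA) were in 1.47%, 4.41% and 8.82% (1.24%, 1.85% and 7.71%). Windows of 3 genes that changed are shown: those of NUP153-AS1 and BSG-AS1, which fell alone and against head-to-head partners, and that of DNM3OS, which rose. BSG encodes a membrane glycoprotein and NUP153 a nuclear pore protein. Capitals mark the motif letters listed above. RP11-500C11.3 was at 3.98 and 4.70 TPM in si-NC and at 2.39, 2.69 and 2.71 TPM in si-circ_63706 libraries, AC009005.2 at 8.48 and 8.44 against 5.36, 5.81 and 5.43 TPM.
RP11-500C11.3 (NUP153-AS1), chr6:17705880-17706179, plus strand: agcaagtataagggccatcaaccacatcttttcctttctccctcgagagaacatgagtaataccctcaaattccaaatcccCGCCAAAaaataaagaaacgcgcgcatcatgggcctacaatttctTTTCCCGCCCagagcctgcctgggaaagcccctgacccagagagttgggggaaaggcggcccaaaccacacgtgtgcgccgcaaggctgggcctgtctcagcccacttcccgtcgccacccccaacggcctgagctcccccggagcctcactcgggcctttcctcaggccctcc
AC009005.2 (BSG-AS1), chr19:572199-572498, minus strand: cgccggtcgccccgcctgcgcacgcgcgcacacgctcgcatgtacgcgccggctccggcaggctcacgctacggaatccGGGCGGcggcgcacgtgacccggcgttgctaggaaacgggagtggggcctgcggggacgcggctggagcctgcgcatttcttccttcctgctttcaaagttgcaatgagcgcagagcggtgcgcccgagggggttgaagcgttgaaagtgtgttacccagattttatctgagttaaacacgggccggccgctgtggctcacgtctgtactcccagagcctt
DNM3OS, chr1:172144786-172145085, minus strand: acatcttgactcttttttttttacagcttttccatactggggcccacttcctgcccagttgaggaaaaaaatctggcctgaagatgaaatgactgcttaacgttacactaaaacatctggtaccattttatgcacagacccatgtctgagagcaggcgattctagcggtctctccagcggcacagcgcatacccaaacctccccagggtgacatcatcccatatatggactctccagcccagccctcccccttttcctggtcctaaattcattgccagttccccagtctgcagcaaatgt

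The NUP153-AS1 window holds both E2F letter runs and a GC box, overlapping at the second run, the BSG-AS1 window a GC box, and the DNM3OS window none of the motifs searched. Transcripts of the antisense RNA genes were also searched for the 7 bases that pair with bases 2 to 8 of each siRNA guide strand. TGAAGGA, for siRNA 1, was in 38 of 127 genes (29.9%) and CTGAAGG, for siRNA 2, in 34 (26.8%), beside 51.0% and 46.4% of 12642 tested genes, whose longest transcript had a median of 3473 bases against 1462. Tested lincRNA genes, with a median of 1414.5 bases, held them in 29.7% and 26.3%. The longest run of pairing from the 5′ end of a guide was 11 bases, in ENTPD1-AS1.

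The genes nearest to the minimum were PPP1R26-AS1 (2.02 TPM), ZEB1-AS1, HNRNPU-AS1, PXN-AS1 and XXyac-YRM2039.3 (2.12 TPM) just inside, and RP11-110G21.1 (1.98 TPM), CTD-2269F5.1, CTD-2371O3.3, RP5-908M14.9 and ALOX12-AS1 (1.93 TPM) just outside it. Between these levels the values of single libraries reached from 1.18 to 2.92 TPM, so membership at the edge was decided by differences smaller than the spread between libraries.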

How the data were processed

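RNA of 2 si-NC and 3 si-circ_63706 DAOY libraries was measured by RNA-seq. The authors deposited 1 table of TPM per gene (60504 genes, values with 2 decimals, each library summing to 1000000). The submitters' processing notes name cutadapt 2.3, STAR 2.7.0d and RSEM 1.3.1 and the build hg38, without roles, and annotation release and strand setting are not given in the sources used here. Groups came from the labels. Members and gene lists were chosen with earlier results of these data known.

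Genes with a mean of at least 1 TPM (12710) were fitted with limma 3.58.1 (R 4.3.3) on log2(TPM + 1), with a mean-variance trend, two-sided, Benjamini-Hochberg adjusted over all of them, threshold 0.05. The same fit was made of log2 ratios of 2410 opposite-strand pairs. TPM is not counts, so no count test was used. Positions, exons and partners came from GENCODE 29 (GRCh38) and promoters and microRNAs from RefSeq. The fit was tested on simulated data. All 200 genes changed by a log2 of 1 among 12710 were called, and 3.85% of calls were unchanged genes. For pair ratios all 200 were called, and 6.54% of calls were unchanged pairs. Most antisense RNA genes called here changed by less than this, and the simulated pairs were drawn at random. How well smaller changes, or pairs that share reads, are called was not tested. Alternatives were a pseudocount of 0.1, no minimum, a minimum of 5 TPM, centring, quantile normalization, rescaling without short RNA biotypes and mitochondrial genes, no trend, a replicate block and leaving out each library. Named were the 10 lowest and 10 highest called genes with groups apart (7 were higher), the 8 highest levels, a list of 53 genes with a described role, the 5 genes on either side of the minimum, the 5 lowest and 5 highest pair ratios, and genes within 1 Mb of PCNT. Other genes in the text were named after their values were seen.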

Additional observations from a re-analysis of the deposited data

Results flagged for a closer look

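More antisense genes, most of them under a mean of 2 TPM and so outside the comparisons of the report, were listed above 0 TPM in the knockdown libraries. Of 5560 antisense genes, 3146 and 3082 were above 0 in si-NC (mean 3114 ± 45.3 SD, n = 2) and 3383, 3366 and 3378 in si-circ_63706 libraries (mean 3375.7 ± 8.74 SD, n = 3), so the groups did not overlap. For the 5424 genes under a mean of 2 TPM alone, the counts were 3010 and 2946 against 3247, 3230 and 3242. The summed TPM of these genes went the other way, with 840.6 and 864.6 in si-NC and 753.8, 783.7 and 796.0 in si-circ_63706 libraries. No such count is given here for other biotypes, so the difference is not shown to be particular to antisense genes. The number of genes above 0 moves with depth, which the TPM do not give, and the part of depth in this difference was not tested.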

How the results depend on the processing

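Counts below are for the 130 antisense RNA genes (7 higher, 38 lower, median -0.18), their 99 partners (4 higher, 43 lower) and the 100 pair ratios (10 higher, 8 lower). Over all genes tested, 4.16% were higher and 35.4% lower as deposited, and 11.7% and 16.1% after centring. No share over all genes or pairs is given here for the other settings. The shifts in these counts are therefore not shown to be particular to antisense RNA genes, their partners or their pairs. With no minimum TPM, genes were 2 higher and 17 lower, partners 2 higher and ratios 3 lower, and with a minimum of 5 TPM, 20 of 49 genes were lower and 2 partners higher. Centring gave 12 genes higher and 19 lower, a median of -0.0602 and partners 14 higher and 22 lower; quantile normalization gave 12 and 13, a median of -0.0214, partners 19 and 23, and 5 ratios lower; rescaling without short RNA biotypes and mitochondrial genes gave 12 and 22, and partners 16 and 26. Without a trend, 4 ratios were lower. The replicate block gave 6 genes higher and 35 lower, 2 partners higher and 4 ratios lower; replicate numbers only name libraries here (correlations of same-numbered libraries 0.01 and 0.03), so this is not a pairing. Requiring at least 50% of exon bases left 30 of 85 genes that share bases with the other strand.

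With any single library left out, the calls were 3 to 8 higher and 14 to 39 lower genes, with medians from -0.21 to -0.15, 0 to 5 partners higher and 21 to 42 lower, and 5 to 8 ratios higher and 2 to 8 lower. The low ends come from leaving out a control: without si-NC replicate 1, 3 genes were higher and 16 lower, and without si-NC replicate 2, 3 and 14, the remaining control being assumed to vary like the other group. No called value of the named genes changed its sign in any alternative. Of the 45 called genes, 11 passed in every alternative (RPPH1, RP11-138I1.4, RP11-323N12.5, GABPB1-AS1, CTD-2231E14.8, RP5-940J5.9, AC009005.2, ARRDC1-AS1, RP4-781K5.2, PRR34-AS1 and RP11-500C11.3), and of the 18 ratios 4 did (RP11-323N12.5, RPPH1, RP11-386G11.10 and RP11-138I1.4). The cause of these shifts was not tested, and depth, which limits the genes of low level, is unknown.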
